A study of Mus musculus with 4 samples.

Results

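The 36 genes described here serve protein folding and the stress response of the endoplasmic reticulum, the compartment where secreted and membrane proteins are made and folded. They form a list of gene names: 9 chaperones and their partners, 2 lectin chaperones, 7 genes of disulfide formation and oxidation, 6 of degradation, 5 of protein entry, and 7 stress sensors and transcription factors. A probe set, a group of short probes for a transcript, was counted for a gene where the platform annotation gave that symbol and no other. All 36 genes were found, with 89 of 45037 probe sets, among 18193 genes in all (Ero1l under its current symbol Ero1a). Expression was measured in intestinal epithelial cells cut by laser capture from 10 µm sections of mouse gut, and the study's title sets germ-free mice, which live without microbes, against wild type mice. The groups were ileum of germ-free C57/Bl6 mice, ileum of wild type C57/Bl6 mice, proximal colon of germ-free C57/Bl6 mice and proximal colon of wild type C57/Bl6 mice. Each group was 1 array hybridised with RNA from about 16000 cells pooled over 4 mice. Hematoxylin staining is named in the labels for the germ-free samples alone, and the age of the mice is not given in the sources used here.

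In the background of cell biology, the chaperone BiP, encoded by Hspa5, binds unfolded chains, protein disulfide isomerases shuffle their disulfide bonds, and chains that fail to fold are sent back to the cytosol and degraded. Unfolded protein is sensed by 3 membrane proteins, IRE1 (Ern1, and Ern2 in epithelia), PERK (Eif2ak3) and ATF6 (Atf6), which act through the transcription factors XBP1, ATF4 and ATF6 itself. The gut epithelium secretes mucus and antimicrobial proteins, and its goblet and Paneth cells are known for a large endoplasmic reticulum.

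Values are quantile-normalized intensities on a linear scale, from the brightest probe set of each gene, and differences are given on the log2 scale. Intensities of different genes cannot be set against each other. All 36 genes were above the floor intensity of 62.4, the median of all values, on all 4 arrays, and 33 had a mean above the 75th percentile of 259. With 1 array per group there is no replicate, so no p-value was computed, and differences past 2-fold (1 on the log2 scale) and past 1.5-fold (0.58) are counted beside the share of all measured genes past the same limit. The one measure of error is technical. Between the 2 brightest probe sets of a gene, the log2 difference had an SD of 0.39 (germ-free) and 0.35 (wild type) for ileum against colon, and of 0.35 (colon) and 0.25 (ileum) for germ-free against wild type, over 4029 genes. The spread from mouse to mouse cannot be read from it.

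The labels were checked against markers. Epithelial markers were bright, with 8 of 8 above the floor on each array, led by Krt8, Krt20 and Epcam. Of 6 ileum markers, 6 were higher in ileum in each state, and Fabp6, the ileal bile acid binding protein, had 18190 in germ-free ileum and 16920 in wild type ileum, against 6008 in germ-free colon and 767 in wild type colon. Of 5 measured colon markers, 1 was lower in ileum in germ-free mice and 3 in wild type mice, so the colon markers went with the label in wild type mice more than in germ-free mice. The colonic enzyme Car1 had 32.5 and 64.7 in germ-free and wild type ileum, against 12437 and 14384 in germ-free and wild type colon. Aqp8 had 130 and 81.3, against 76.4 and 545, and Cdx2 and Mep1a were near level. Between the colon arrays, 6 of 6 ileum markers were higher in germ-free mice, with a median of 0.46 (48.6% of all genes were higher). Of 5 measured colon markers, 3 were lower in germ-free colon, 2 of them past 2-fold (3.23% of all genes), and 2 were higher. In bulk samples of this kind, fewer cells of a type and less RNA per cell cannot be told apart.

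Several of the genes share letters in their promoter sequence. The 36 genes were listed for folding and stress response, so a high share of stress elements describes the list and tests nothing. The ER stress response element has CCAAT and CCACG separated by 9 bases, and is known to bind NF-Y together with ATF6 or XBP1. RefSeq promoter windows of build GRCm38.p6, from 250 bases before to 50 after the start site, were at hand for 28 of the 36 genes. Searched on both strands, the element lay in 8 of these 28 (28.6%), against 37 of 27025 genes of the genome (0.137%). The matched elements are given here on the strand that reads CCAAT first, with CCAAT and CCACG in capitals, because no other motif searched was shared by as many of the 36 genes.

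Hspa5: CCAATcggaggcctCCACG
Pdia6: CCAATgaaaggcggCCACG
Syvn1: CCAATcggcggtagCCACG
Hsp90b1, distal: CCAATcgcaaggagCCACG
Hsp90b1, proximal: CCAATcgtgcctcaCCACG
Dnajc3: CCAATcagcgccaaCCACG
Creld2: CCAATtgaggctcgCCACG
Calr: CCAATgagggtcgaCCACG
Canx: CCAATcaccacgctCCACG

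The base of the element farthest from the start site lay 65 bases before that site in Hspa5, 98 in Pdia6, 44 in Syvn1, 212 and 107 in Hsp90b1, 105 in Dnajc3, 126 in Creld2, 162 in Calr and 145 in Canx. A second form, ATTGG and CCACG with 1 base between them, lay in Dnajb11 and Herpud1, which are 2 of 28 (7.14%) against 12 of 27025 genes (0.0444%). It did not overlap an element of the first form in these genes.

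Herpud1: ATTGGgCCACG
Dnajb11: ATTGGcCCACG

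TGACGTGG, a letter run of the unfolded protein response element, lay in the Txndc5 window, 1 of 28 genes, against 193 of 27025 (0.714%). A match is a description of the letters and shows no binding. The 250 bases before the start sites of Hspa5 and Pdia6, the gene of BiP and a gene past 2-fold higher in ileum in both states, follow with the element in capitals. The Hspa5 stretch is chr2:34771840-34772089, plus strand, and the Pdia6 stretch is chr12:17266339-17266588, plus strand.

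Hspa5 promoter: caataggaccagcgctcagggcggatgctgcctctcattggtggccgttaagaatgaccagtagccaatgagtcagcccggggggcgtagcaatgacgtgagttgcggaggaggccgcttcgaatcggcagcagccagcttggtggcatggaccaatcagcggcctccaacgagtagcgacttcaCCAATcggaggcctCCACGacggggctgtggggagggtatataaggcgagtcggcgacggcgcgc
Pdia6 promoter: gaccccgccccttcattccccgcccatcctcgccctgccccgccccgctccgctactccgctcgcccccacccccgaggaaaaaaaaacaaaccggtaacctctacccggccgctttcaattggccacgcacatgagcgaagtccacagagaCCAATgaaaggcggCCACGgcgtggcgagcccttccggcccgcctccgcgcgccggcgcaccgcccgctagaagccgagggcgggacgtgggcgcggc

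Folding genes were brighter in ileum than in colon, in germ-free and in wild type mice alike. For 25 of the 36 genes both ileum arrays lay above both colon arrays, where 28.8% of all measured genes did so (30.5% of genes with a mean above the 75th percentile). For 6 genes (Dnajb9, Ero1a, Sec11c, Ern1, Ern2 and Ddit3) both ileum arrays lay below both colon arrays, against 27% of all genes. The median difference of the 36 genes was 0.32 in germ-free mice, with 28 higher and 8 lower in ileum, beside 0.04 over all measured genes (53.2% higher and 46.7% lower). It was 0.32 in wild type mice, with 29 higher and 7 lower, beside -0.01 over all genes (49.2% higher and 50.8% lower). Past 2-fold were 3 genes higher in germ-free ileum (Hspa5, Manf and Pdia6; 7.37% of all genes) and 3 in wild type ileum (Manf, Pdia6 and Ssr2; 6.04%), so that Manf and Pdia6 were past it in both states (3.73% of all genes). None of the 36 was lower past 2-fold in either state, as were 5.88% and 5.93% of all genes in germ-free and wild type mice.

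Past 1.5-fold, 12 of the 36 genes were higher in germ-free ileum than in germ-free colon and 1 was lower (Ern2), beside 17.2% and 13.4% of all measured genes. In wild type mice 10 were higher and 3 lower (Dnajb9, Ern1 and Ddit3), beside 13.6% and 13.9%. The 2 states share no array, and 8 genes were higher past 1.5-fold in both, with 8.14% of all genes: Hspa5, Hyou1, Manf, Pdia3, Pdia6, Syvn1, Edem1 and Ssr2. With the values as deposited, Pdia3 (0.58), Syvn1 (0.54) and Ssr2 (0.50) fell just short of it in germ-free mice. None was lower past 1.5-fold in both, as were 8.44% of all genes. With the values as deposited, the germ-free count was 7 higher and 2 lower, and the median of all genes moved to -0.11. Values of the 36 genes in each sample and their regional differences are drawn in the dot plot by array and the plot of ileum against colon.

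**Figure D1:**
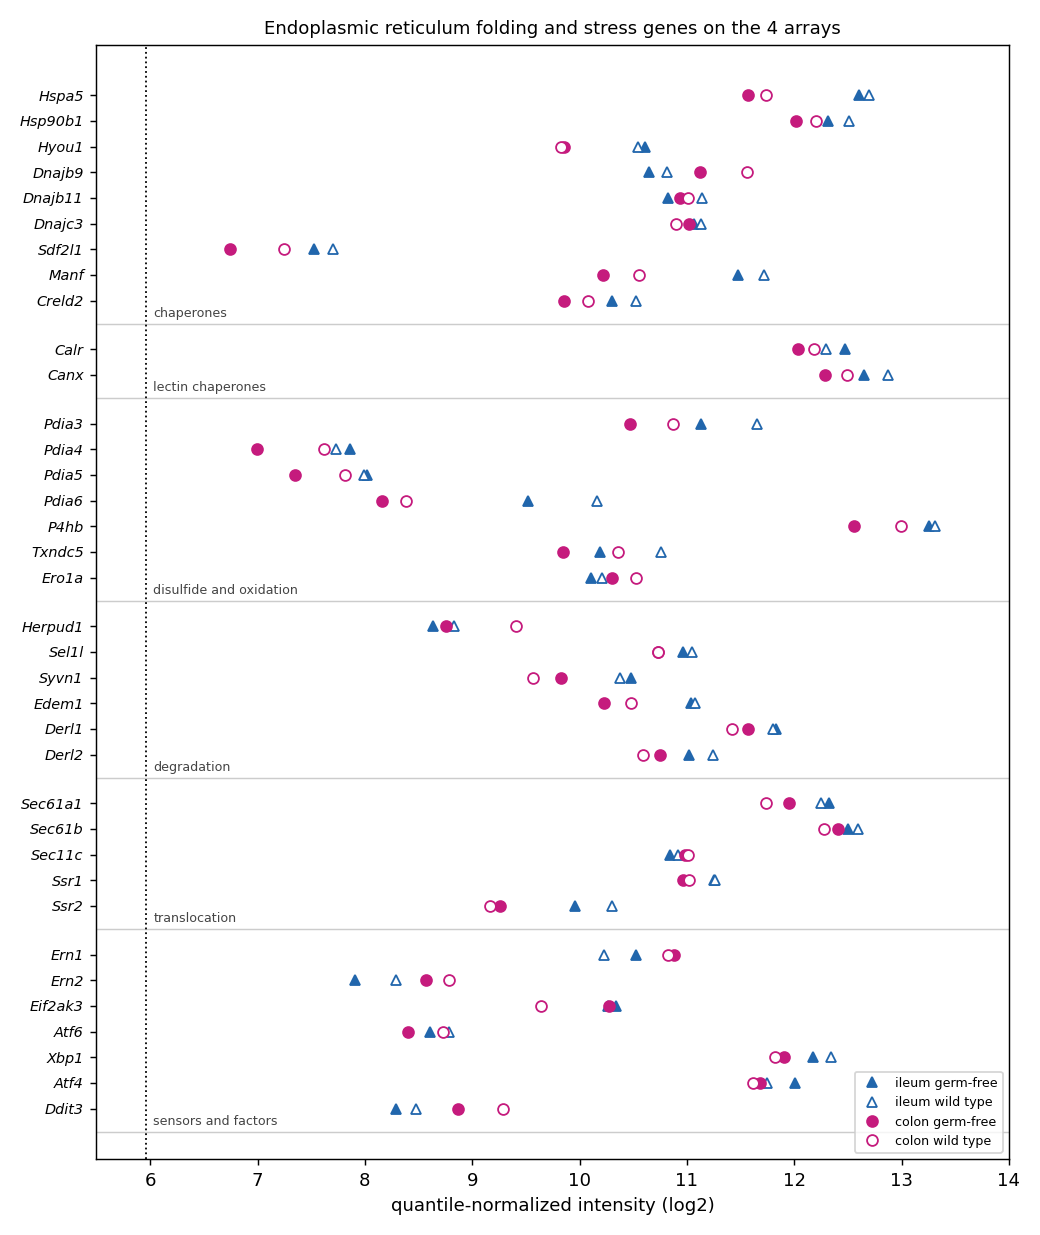
Quantile-normalized intensity (log2, x axis) of the 36 genes, 1 row per gene, grouped by role, with ileum as triangles, colon as circles, germ-free filled and wild type open; each point is 1 array and the dotted line is the floor of 5.96. Both triangles lie right of both circles for 25 genes and left of them for 6, and rows cannot be compared with each other since they come from different probe sets.

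Among the chaperones, Hspa5 had 6234 in germ-free ileum and 6619 in wild type ileum, against 3046 in germ-free colon and 3417 in wild type colon. The ileum arrays were about level with each other and lay 1.03 (germ-free) and 0.95 (wild type) above colon on the log2 scale. The 3 Hspa5 probe sets spanned 1.03 to 1.11 in germ-free and 0.94 to 1.24 in wild type mice. Manf, a small secreted protein held in the endoplasmic reticulum by BiP, had 2856 in germ-free ileum and 3363 in wild type ileum, against 1192 in germ-free colon and 1501 in wild type colon. It was 2.40-fold higher in germ-free ileum and 2.24-fold in wild type ileum, by its 1 probe set. Hyou1, a large chaperone that exchanges the nucleotide of BiP, had 1561 and 1490 in germ-free and wild type ileum, against 923 and 907 in germ-free and wild type colon. The groups did not overlap and differed by 0.76 (germ-free) and 0.72 (wild type), but another Hyou1 probe set gave 0.86 in germ-free and -0.62 in wild type mice, so its call rests on which probe set is read.

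Sdf2l1, a partner of the BiP cochaperones, had 184 and 209 in germ-free and wild type ileum, against 107 and 152 in germ-free and wild type colon, a difference of 0.79 in germ-free and 0.46 in wild type mice. Creld2, known as a target of ER stress, had 1261 and 1478 in germ-free and wild type ileum, against 927 and 1082 in germ-free and wild type colon (0.45 in each state). Hsp90b1, the GRP94 chaperone, had 5095 and 5814 in germ-free and wild type ileum, against 4132 and 4701 in germ-free and wild type colon. It differed by 0.30 in germ-free and 0.31 in wild type mice by the brightest probe set, whereas its other probe set gave 1.26 and 1.12. Calreticulin and calnexin, which hold sugar-bearing chains, were also higher on the ileum arrays. Calr differed by 0.43 in germ-free and 0.11 in wild type mice, while its other probe sets gave 0.51 and 0.61 in germ-free and -0.00 and -0.10 in wild type mice. Canx differed by 0.37 and 0.39, with 6440 and 7523 in germ-free and wild type ileum, against 4984 and 5753 in germ-free and wild type colon.

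The cochaperones of BiP differed in direction. Dnajb9 (ERdj4), which aids degradation and restrains IRE1, had 1607 in germ-free ileum and 1796 in wild type ileum, against 2231 in germ-free colon and 3016 in wild type colon. Both colon arrays were above both ileum arrays, by -0.47 in germ-free and -0.75 in wild type mice as ileum minus colon. Dnajb11 (ERdj3) differed by -0.11 in germ-free and 0.13 in wild type mice, under the probe set SD. Dnajc3 (p58IPK), which damps PERK, was higher on both ileum arrays, by 0.05 in germ-free and 0.23 in wild type mice. Its 3 other probe sets above the floor gave 0.31 to 0.67 and 0.30 to 0.61.

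The disulfide isomerases were the group with the largest regional medians in germ-free mice. There 6 of 7 genes were higher in ileum, 5 of them past 1.5-fold (17.2% of all genes), with a median of 0.67. In wild type mice 6 of 7 were again higher, with a median of 0.31 and 2 past 1.5-fold (13.6% of all genes). Pdia6 (P5), an isomerase that also binds IRE1 and PERK, had 735 in germ-free ileum and 1145 in wild type ileum, against 286 in germ-free colon and 334 in wild type colon. The ileum arrays were 2.57-fold higher in germ-free and 3.42-fold higher in wild type mice. With the values as deposited it stood at 1.10 in germ-free mice, below Manf at 1.17. Averaged with a dimmer probe set that was under the floor on 3 of 4 arrays, it stood at 0.11 in germ-free and 0.98 in wild type mice, so its call rests on the brighter probe set. Pdia3 (ERp57), the partner of calnexin and calreticulin, had 2240 and 3223 in germ-free and wild type ileum, against 1417 and 1870 in germ-free and wild type colon. It was 1.58-fold and 1.72-fold higher in ileum in germ-free and wild type mice.

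P4hb, the classical disulfide isomerase and a subunit of prolyl hydroxylase, had 9746 and 10142 in germ-free and wild type ileum, against 6029 and 8184 in germ-free and wild type colon. The germ-free colon array was the low one of the 4, and the regional difference was 0.69 in germ-free and 0.31 in wild type mice. Pdia4 (ERp72) had 232 and 213 in germ-free and wild type ileum, against 128 and 196 in germ-free and wild type colon, and Pdia5 had 259 and 255, against 163 and 225. For both genes, too, the germ-free colon array alone was low, with regional differences of 0.86 and 0.67 in germ-free mice and of 0.12 and 0.18 in wild type mice. Txndc5 differed by 0.34 in germ-free and 0.40 in wild type mice. Ero1a, the oxidase that recharges the isomerases, went the other way, with 1100 and 1181 in germ-free and wild type ileum, against 1265 and 1479 in germ-free and wild type colon (-0.20 and -0.32).

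**Figure D2:**
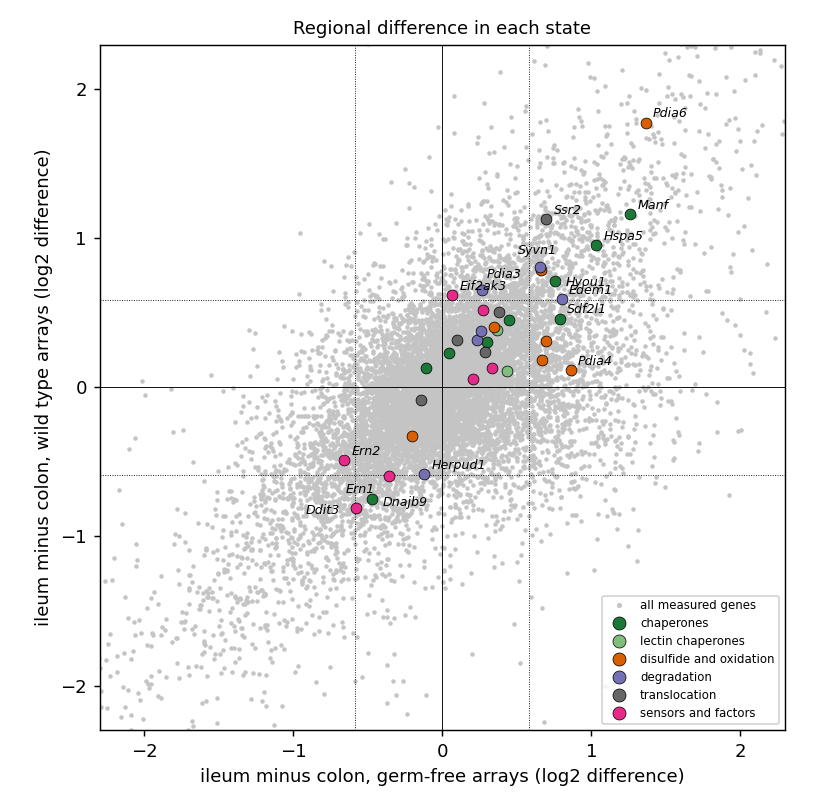
Ileum minus colon (log2 difference) in germ-free arrays (x axis) and in wild type arrays (y axis), with 1 point per gene, the 36 genes coloured by role, all measured genes in grey, and dotted lines at 1.5-fold; grey points beyond the axes are not drawn. Pdia6, Manf and Hspa5 lie at the upper right, Ddit3, Dnajb9, Ern1 and Ern2 at the lower left, and 8 genes are past 1.5-fold in the upper right corner.

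By their brightest probe sets, genes of degradation from the endoplasmic reticulum were mostly higher in ileum, 5 of 6 in each state. The medians were 0.26 in germ-free and 0.49 in wild type mice. Averaged over probe sets, Sel1l was lower in ileum in both states and Derl2 in germ-free mice. Syvn1 (HRD1), the ubiquitin ligase of this route, had 1424 in germ-free ileum and 1330 in wild type ileum, against 906 in germ-free colon and 760 in wild type colon. Its difference was 0.65 in germ-free and 0.81 in wild type mice, with 0.90 and 0.86 for its other probe set. Its partner Sel1l differed by 0.23 and 0.32 by its brightest probe set. Its 2 other probe sets above the floor gave -0.28 and -0.44 in germ-free and 0.90 and -0.53 in wild type mice. Edem1, which marks misfolded glycoproteins, had 2097 and 2151 in germ-free and wild type ileum, against 1202 and 1426 in germ-free and wild type colon. The difference of 0.80 and 0.59 came from the brightest probe set, and the other gave 0.01 and 0.07.

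The derlins, membrane proteins of the same route, were higher on both ileum arrays. Derl1 differed by 0.26 in germ-free and 0.38 in wild type mice, and Derl2 by 0.27 and 0.65, while another Derl2 probe set gave -0.35 and -0.27. Herpud1, a stress-induced scaffold of the ligase, had 397 and 455 in germ-free and wild type ileum, against 432 and 681 in germ-free and wild type colon. Here the wild type colon array was the one that stood above the other 3, and the difference was -0.12 in germ-free and -0.58 in wild type mice.

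Of the genes of protein entry, Ssr2, a subunit of the translocon-associated complex, had 992 in germ-free ileum and 1260 in wild type ileum, against 611 in germ-free colon and 576 in wild type colon. It was 1.62-fold higher in ileum in germ-free and 2.19-fold higher in wild type mice. Sec61a1, the channel itself, differed by 0.38 and 0.51, Sec61b by 0.10 and 0.32, and Ssr1 by 0.28 and 0.24 in germ-free and wild type mice. Sec11c, a signal peptidase subunit, was near level, at -0.15 and -0.09. A probe set that Sec61b shares with Gm10320, which was not used, had 130 and 154 in germ-free and wild type ileum, against 92.0 and 85.4 in germ-free and wild type colon.

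The sensors and factors had no common direction. Xbp1, the factor activated by IRE1, had 4634 and 5194 in germ-free and wild type ileum, against 3843 and 3628 in germ-free and wild type colon (0.27 in germ-free and 0.52 in wild type mice), and all 4 of its probe sets were higher in ileum in each state. Splicing of Xbp1 was not measured. Ern2, the IRE1 form of mucus-secreting epithelia, had 241 in germ-free ileum and 314 in wild type ileum, against 381 in germ-free colon and 440 in wild type colon. Both ileum arrays were low, by -0.66 in germ-free and -0.49 in wild type mice. Ern1 had 1472 and 1197 in germ-free and wild type ileum, against 1884 and 1811 in germ-free and wild type colon (-0.36 and -0.60), while 2 other probe sets gave 0.01 and 0.71 in germ-free and 0.10 and 0.00 in wild type mice.

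Ddit3 (CHOP), the factor tied to cell death under lasting stress, had 312 in germ-free ileum and 357 in wild type ileum, against 467 in germ-free colon and 626 in wild type colon. Its difference was -0.58 in germ-free and -0.81 in wild type mice, and its other probe set gave -0.69 and -0.27. Eif2ak3 had 1298 and 1230 in germ-free and wild type ileum, against 1240 and 801 in germ-free and wild type colon, so that the wild type colon array alone was low. Atf4 differed by 0.33 and 0.13 and Atf6 by 0.20 and 0.05 in germ-free and wild type mice, under the probe set SD.

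**Figure D3:**
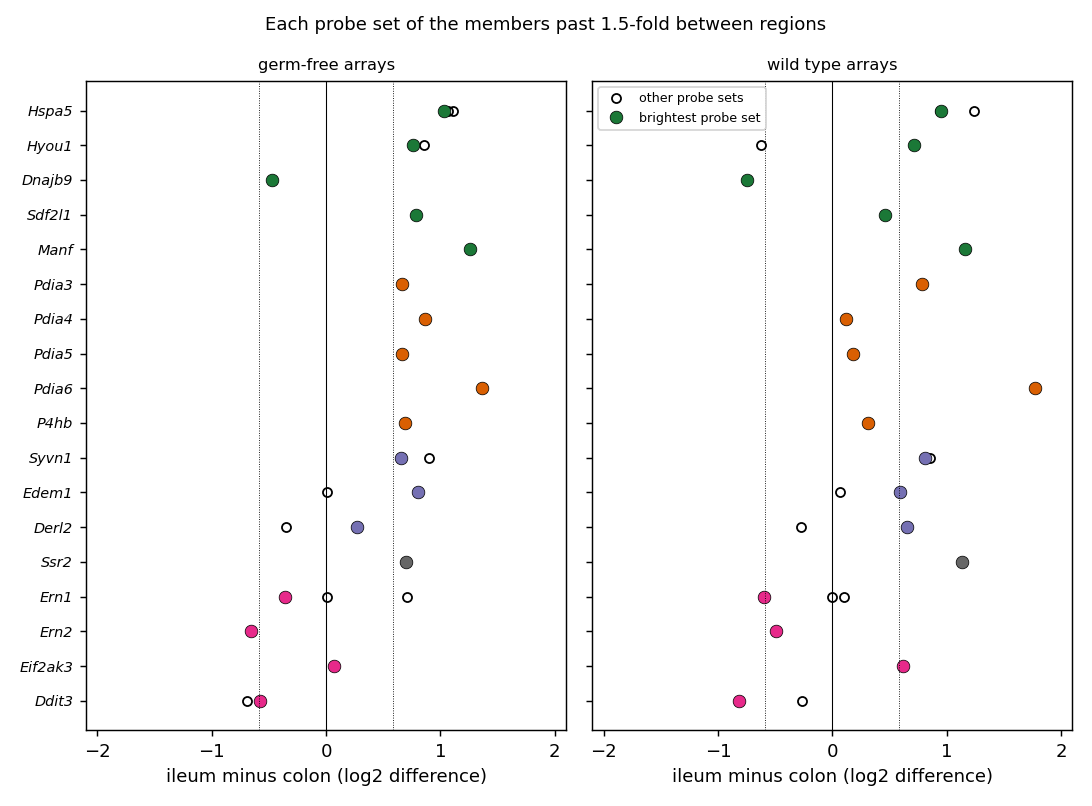
Ileum minus colon (log2 difference, x axis) of every probe set above the floor on all arrays, for the genes past 1.5-fold in either state, with germ-free arrays at left and wild type arrays at right; filled points are the brightest probe set, coloured by role as in the plot of ileum against colon, and open points the others. The Hspa5 and Syvn1 probe sets lie together, while those of Hyou1 in wild type mice, Edem1, Derl2 and Ern1 lie apart.

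Over the 21 genes with at least 2 probe sets above the floor on all arrays, the next brightest probe set had the same direction for 17 in germ-free and 14 in wild type mice. By their brightest probe sets the 8 genes with the ER stress response element were higher in ileum in each state (other Calr probe sets were not, in wild type mice), with medians of 0.44 in germ-free and 0.42 in wild type mice. Of the 20 genes whose window had no such element, 14 in germ-free and 15 in wild type mice were higher, with medians of 0.27 and 0.27. The difference between these small groups is a description.

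Markers of other cells also differed between the regions. Summed intensity of 7 Paneth cell markers was 11254 in germ-free ileum and 17092 in wild type ileum, against 871 in germ-free colon and 1052 in wild type colon, with 4 of 7 above the floor on each ileum array and 3 of 7 on each colon array. Lyz1, the Paneth cell lysozyme, had 7687 and 10210 in germ-free and wild type ileum, against 131 and 233 in germ-free and wild type colon. Enteroendocrine markers, 8 genes with 7 above the floor on each array, summed to 5911 and 6347 in germ-free and wild type ileum, against 18433 and 20537 in germ-free and wild type colon. The sum over 11 goblet cell markers, 10 above the floor on each array, was close in all groups, from 67061 (germ-free ileum) to 72734 (wild type colon). Such a sum follows its brightest genes.

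Absorptive cell markers had median differences of 1.37 in germ-free and 1.96 in wild type mice. Higher in ileum were 8 of 10 and 6 of 9 measured genes (53.2% and 49.2% of all genes). This list holds Pdgfb, which is not such a marker, in place of sucrase-isomaltase, because the symbol Sis was matched as an older name of Pdgfb. Myeloid markers had median differences of 0.55 and 0.54, with sums of 4121 and 5634 in germ-free and wild type ileum, against 2168 and 3020 in germ-free and wild type colon. T lymphocyte markers, 3 and 4 measured, had 1.22 and 0.70. Fibroblast and smooth muscle markers had -0.25 in germ-free and 1.10 in wild type mice, where 5 of 9 were higher past 2-fold in ileum (6.04% of all genes). Endothelial markers had 0.22 and -0.42. Plasma and B cell markers had 0.15 and 0.35.

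RNA quality, read as 5′ minus 3′ control probe sets, differed by 0.38 (Actb) and 0.01 (Gapdh) between germ-free ileum and germ-free colon. Between wild type ileum and wild type colon it differed by 1.46 and 0.64. The part of these markers and of RNA quality in the regional differences was not tested.

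The germ-free state went with small differences in the same genes. Any effect of hematoxylin staining, which the labels name for the germ-free samples alone, cannot be told apart from that state. In colon, 24 of the 36 were lower in germ-free mice and 12 higher, with a median of -0.18, beside -0.01 over all measured genes, of which 51.3% were lower and 48.6% higher. In ileum 26 were lower and 10 higher, with a median of -0.10 beside 0.03 over all genes (45.1% lower and 54.8% higher). Most differences of single genes among the 36 were under the probe set SD of 0.35 in colon and 0.25 in ileum. None was past 2-fold in colon (1.29% of all genes higher and 3.23% lower) or in ileum (0.23% higher and 0.698% lower). With the arrays scaled by their medians, the colon median of all genes moved to 0.12 and 19 of the 36 were lower there. With the values as deposited it moved to 0.09, 20 of the 36 were lower, and 296 of 11832 genes were higher and 275 lower past 2-fold. The median of the 36 genes lay 0.16 below that of all genes in colon, and 0.15 below it under each of these scalings.

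Lower in germ-free mice in both regions were 21 of the 36 genes, with 24.4% of all measured genes, and higher in both were 7 (Hyou1, Syvn1, Derl1, Sec61a1, Ern1, Eif2ak3 and Atf4), with 27.9%. The 2 regions share no array. Both germ-free arrays lay below both wild type arrays for Dnajb11, Txndc5, Herpud1 and Atf6 (9.31% of all genes) and above them for Eif2ak3 alone (10.3%), which was not so with the arrays scaled by their medians. Over the 21 genes with at least 2 probe sets above the floor on all arrays, the next brightest probe set had the same direction for 12 in colon and 16 in ileum.

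**Figure D4:**
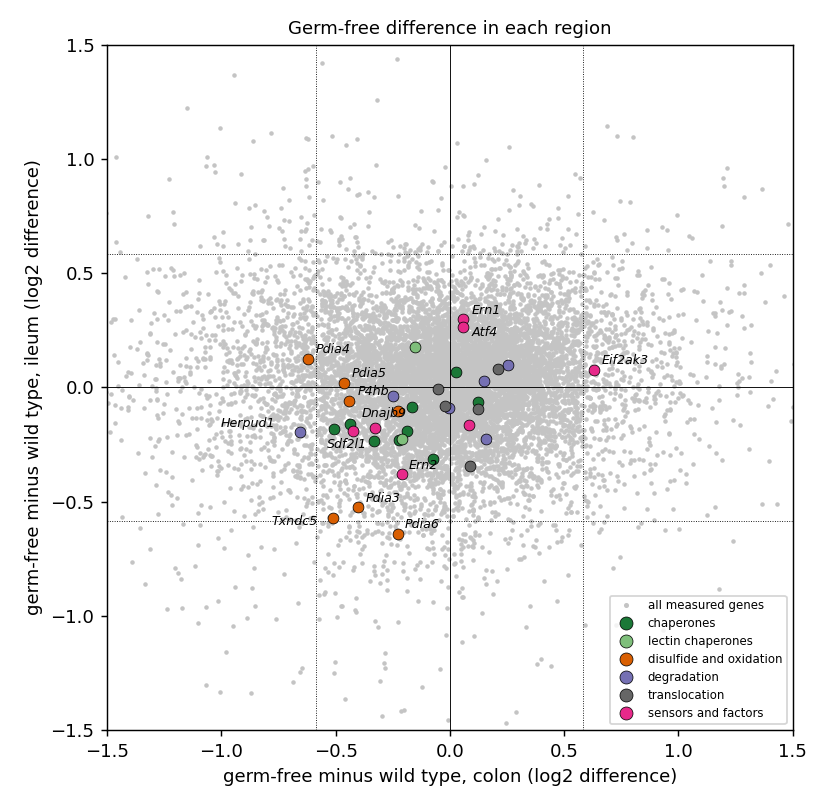
Germ-free minus wild type (log2 difference) in colon (x axis) and in ileum (y axis), with 1 point per gene, the 36 genes coloured by role, all measured genes in grey, and dotted lines at 1.5-fold; grey points beyond the axes are not drawn. The lower left quadrant holds 21 of the 36 genes, and Eif2ak3, Herpud1, Pdia4 and Pdia6 alone lie past a dotted line.

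Disulfide genes were lower in germ-free colon as a group. All 7 were lower there, with a median of -0.44, and 6 of 7 were lower with the values as deposited, scaled by medians, or averaged over probe sets, where Pdia6 had 0.02, 0.05 and 0.10. Pdia4 had 128 in germ-free colon and 196 in wild type colon, a 1.54-fold lower value, and 232 in germ-free ileum and 213 in wild type ileum. With the values as deposited the colon difference was -0.45, short of 1.5-fold. The thioredoxin-like isomerase Txndc5 had 919 in germ-free colon and 1309 in wild type colon, and 1167 in germ-free ileum and 1732 in wild type ileum. Both germ-free arrays were the lower, by -0.51 and -0.57, with -0.95 and -0.44 for its other probe set.

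In ileum Pdia6 was the 1 gene of the 36 past 1.5-fold, beside 2.4% of all genes higher and 3.17% lower. It had 735 in germ-free ileum and 1145 in wild type ileum, a 1.56-fold lower value, and 286 in germ-free colon and 334 in wild type colon. Pdia3 had 2240 in germ-free ileum and 3223 in wild type ileum (-0.52), and 1417 in germ-free colon and 1870 in wild type colon (-0.40). It was lower in germ-free mice in both regions, as was Txndc5, and with the values as deposited Pdia3 stood at -0.61 and Txndc5 at -0.66 in ileum. That setting thus had 3 genes lower past 1.5-fold in ileum, with Pdia6 at -0.72. P4hb and Pdia5 differed by -0.44 and -0.46 in colon, and by -0.06 and 0.02 in ileum. Ero1a differed by -0.23 in colon and -0.10 in ileum.

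Chaperones were lower in germ-free mice for 7 of 9 genes in colon and 8 of 9 in ileum, with medians of -0.19 and -0.18. All but Dnajb9 and Sdf2l1 in colon, and all but Dnajb11 in ileum, were under the probe set SD. Hspa5 differed by -0.17 in colon and -0.09 in ileum, and Hsp90b1 by -0.19 in each. Manf differed by -0.33 in colon and -0.24 in ileum, Creld2 by -0.22 and -0.23, and Dnajb9 by -0.44 and -0.16. Sdf2l1 had 107 in germ-free colon and 152 in wild type colon (-0.50), and 184 in germ-free ileum and 209 in wild type ileum (-0.18). Hyou1 was level at 0.03 in colon and 0.07 in ileum by its brightest probe set, while its other one gave -1.22 and 0.26. Dnajb11 had -0.07 and -0.31 and Dnajc3 0.12 and -0.06, and the lectin chaperones Calr and Canx had -0.15 and -0.21 in colon and 0.18 and -0.22 in ileum.

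In degradation and entry the directions were mixed. Herpud1 had 432 in germ-free colon and 681 in wild type colon, a 1.58-fold lower value, and 397 in germ-free ileum and 455 in wild type ileum (-0.20). The colon difference was -0.41 with the values as deposited, short of 1.5-fold. Syvn1 differed by 0.25 in colon and 0.10 in ileum, Sel1l by -0.00 and -0.09, and Edem1 by -0.25 and -0.04. Derl1 had 0.15 and 0.03, and Derl2 0.16 and -0.22. Entry genes lay between -0.05 and 0.21 in colon and between -0.35 (Ssr2) and 0.08 (Sec61a1) in ileum, and the 5 Sec61a1 probe sets above the floor spread from -0.82 to 0.93 in colon.

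Among the sensors, Eif2ak3 had 1240 in germ-free colon and 801 in wild type colon, a 1.55-fold higher value, and 1298 in germ-free ileum and 1230 in wild type ileum (0.08). It was the 1 gene of the 36 past 1.5-fold higher in colon, beside 6.19% of all measured genes, and Herpud1 and Pdia4 were the 2 past it lower, beside 10.8%. Eif2ak3 stayed past 1.5-fold with the values as deposited (0.73) and scaled by medians (0.75). Ern2 differed by -0.21 in colon and -0.38 in ileum, Atf6 by -0.33 and -0.18, and Ddit3 by -0.42 and -0.19. Ern1 had 0.06 and 0.30, Atf4 0.06 and 0.26, and Xbp1 0.08 and -0.16 in colon and ileum. For Atf4 and Atf6 another probe set had the opposite sign in colon, -0.56 and 0.43, and in ileum, -0.36 and 0.09. In colon the other Ddit3 probe set gave 0.15, and 2 other Ern1 probe sets gave -0.06 and -0.41. The Xbp1 probe sets spread from -0.26 to 0.47 there.

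The colon difference minus the ileum difference was past 1.5-fold for 1 gene, Pdia4 at -0.75, beside 13.8% of all measured genes lower and 8.5% higher. It was -0.52 with the values as deposited, short of 1.5-fold, and 3 other genes were then higher past it, Pdia6 (0.75), Eif2ak3 (0.71) and Ssr2 (0.71). The direction of the genes past 1.5-fold thus depends on the scaling. None of the 36 was past 2-fold (4.98% of all genes lower and 2.16% higher). The median was 0.00, beside -0.02 over all genes, with 19 higher and 17 lower (48.6% and 51.4% of all genes), and 26 higher and 10 lower with the values as deposited, where the median of all genes moved to 0.14. Eif2ak3 (0.55), Pdia5 (-0.48), Herpud1 (-0.46), Ssr2 (0.43) and Pdia6 (0.41) followed Pdia4 in size. Whether the regions differ could not be tested with 1 array per group.

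Some plasma and B cell markers moved with the germ-free state, led by Igha and Jchain. In colon 5 of 6 measured genes were lower in germ-free mice (51.3% of all genes), with a median of -0.76, and 1 was higher (0.41). Over 12 genes the sum was 8288 in germ-free ileum and 17838 in wild type ileum, with 6 and 8 of 12 above the floor, and 7734 in germ-free colon and 11888 in wild type colon, with 6 of 12 in each. Igha, the constant region of immunoglobulin A, had 1712 in germ-free ileum and 7204 in wild type ileum, and 501 in germ-free colon and 4609 in wild type colon. Jchain had 704 in germ-free ileum and 4808 in wild type ileum, and 197 in germ-free colon and 1549 in wild type colon. Without Igha and Jchain the sum was not lower in germ-free mice in either region. That sum follows its brightest genes, while by gene 5 of the 6 measured in colon were lower, 3 of them past 2-fold (3.23% of all genes). Tnfrsf17, Irf4, Cd79a and Ms4a1 were below the floor on all 4 arrays. Plasma cells, too, are known for strong expression of endoplasmic reticulum genes.

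Markers of other cells outside the epithelium were also mostly lower in germ-free mice, beside 51.3% of all genes lower in colon and 45.1% in ileum. T lymphocyte markers were lower for 4 of 4 measured genes in each region, with medians of -0.76 in colon and -0.69 in ileum. Fibroblast and smooth muscle markers were lower for 8 of 9 in ileum, 4 past 2-fold (0.698% of all genes), with a median of -0.82. In colon 4 of 6 were lower, with -0.22. Endothelial markers were lower for 3 of 3 in colon (-0.73) and 3 of 4 in ileum (-0.16), and myeloid markers had medians of -0.34 and -0.25.

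The 5′ minus 3′ control difference was -1.20 (Actb) and -1.10 (Gapdh) between germ-free and wild type ileum, and -0.12 and -0.48 between germ-free and wild type colon. The Paneth cell sum was lower in germ-free ileum than in wild type ileum, as given above. In colon, 8 of 10 measured goblet cell markers (median -0.13) and 6 of 7 enteroendocrine markers (-0.33) were lower in germ-free mice. Of 8 epithelial markers 7 were higher there (median 0.15), beside 51.3% of all genes lower and 48.6% higher. Region markers also differed between the 2 colon arrays, and all germ-free differences in colon rest on that pair of arrays. The part of these values in the germ-free differences was not tested.

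The other genes of the pathway, 118 in 9 lists, were counted in the same way. Over all measured genes, 51.3% were lower in germ-free than in wild type colon and 45.1% in ileum. In germ-free against wild type colon, 6 of 9 other genes of oxidative folding were lower (median -0.14), led by Vkorc1, the vitamin K epoxide reductase (712 in germ-free and 1218 in wild type colon, -0.78) and the oxidase Ero1b (-0.54). Other genes of glycoprotein folding and cargo were lower for 5 of 7 in colon (median -0.29) and 6 of 7 in ileum (-0.14). Uggt1, which reglucosylates misfolded chains, had -0.47 and Lman1, a cargo receptor, -0.45 in colon, and in ileum Ganab had -0.34 and Mcfd2 -0.23. In ileum 7 of 9 genes of oxidative folding were lower (median -0.25), with Prdx4 at -0.39 and Erp29 at -0.36.

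Other chaperone cofactors had medians of -0.08 in colon and -0.11 in ileum, with Fkbp11 at 72.8 in germ-free and 131 in wild type colon (-0.84), Cnpy4 at 0.44 in colon, and Fkbp11 (-0.42) and Cnpy3 (-0.35) in ileum. In the other degradation genes, Derl3, which is also among the plasma cell markers, had 169 in germ-free colon and 356 in wild type colon, 2.11-fold lower. It was the 1 of 15 past 2-fold, beside 3.23% of all genes lower past it. The list's medians were -0.04 in colon and 0.16 in ileum, where Edem2 (-0.89) and Ufd1 (0.44) differed most. Translocon and signal peptidase genes had medians of -0.14 and -0.05, with Spcs1 (0.41) and Spcs3 (0.36) in colon and Srprb (-0.43) and Ssr4 (-0.33) in ileum. Genes of the oligosaccharyltransferase, which adds sugar to entering chains, had medians of -0.06 and -0.14, with Krtcap2 (-0.57) and Rpn2 (-0.27) in colon and Rpn2 (-0.66) and Tusc3 (-0.36) in ileum. Genes of COPII vesicles, which carry folded cargo out, had medians of 0.00 and -0.04, with Sec23a (0.41) and Surf4 (0.40) in colon and Sec24b (-0.57) and Sec31a (-0.34) in ileum.

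Targets of the integrated stress response, which PERK shares with other kinases, had the lowest median of these 9 lists in germ-free colon. It was -0.44, beside -0.01 over all measured genes. Of 16 measured, 12 were lower, 6 past 1.5-fold and 3 past 2-fold, beside 51.3%, 10.8% and 3.23% of all genes. Nupr1, a stress-induced nuclear protein, had 1284 in germ-free colon and 4294 in wild type colon, 3.35-fold lower. Vldlr, a lipoprotein receptor, had 555 in germ-free and 1282 in wild type colon, and Chac1, a glutathione-degrading enzyme, had 75.8 and 171. The factor Cebpb went the other way, with 226 in germ-free colon and 97.5 in wild type colon. In ileum 12 of 16 were higher in germ-free mice (54.8% of all genes), with a median of 0.20 beside 0.03 over all genes. Nupr1 was again lower, with 119 in germ-free and 256 in wild type ileum. The Atf4 and Ddit3 values given above are those of factors of this response. Neither the part of PERK nor the difference between the regions was tested.

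Other sensors and regulators had medians of -0.05 in colon (14 genes) and -0.06 in ileum (15 genes). Atf6b, an ATF6 relative, was at least 2.20-fold higher in germ-free colon, with 137 there and a value under the floor in wild type colon. Creb3l2 (-0.68) and Creb3l3 (0.44) differed most in ileum.

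Between the regions, other glycoprotein folding and cargo genes had medians of 0.54 in germ-free and 0.55 in wild type mice, with 6 of 7 and 7 of 7 higher in ileum. Over all measured genes, 53.2% were higher in ileum in germ-free and 49.2% in wild type mice. COPII genes had 0.39 and 0.62, with 10 of 13 higher in each state. Other oxidative folding genes had 0.25 and 0.28, the oligosaccharyltransferase 0.26 and 0.12, translocon genes 0.09 and 0.08, and chaperone cofactors 0.07 and 0.03. Degradation genes outside the 36 had 0.08 and -0.27, stress response targets 0.49 and -0.30, and other sensors 0.08 and -0.01.

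The largest regional values in the cargo lists, chosen after the values were seen, belong to 3 genes. Lman1 had 2806 in germ-free ileum and 2618 in wild type ileum, against 695 in germ-free colon and 947 in wild type colon. Its partner Mcfd2 had 2515 and 2951 in germ-free and wild type ileum, against 1134 and 1389 in germ-free and wild type colon. The COPII coat gene Sec24d had 1514 and 1497, against 690 and 688. All 3 were higher past 2-fold in ileum in each state, as were 3.73% of all genes, which follows from their choice by size.

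**Figure D5:**
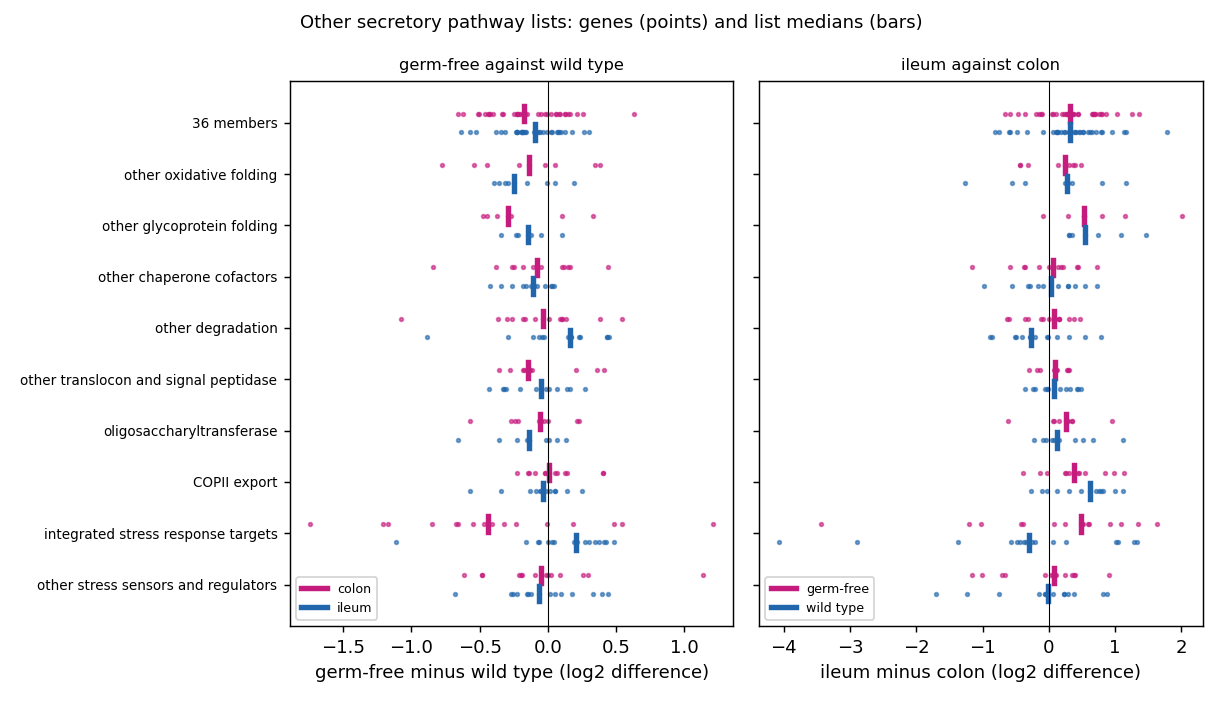
Germ-free minus wild type (left, log2 difference) and ileum minus colon (right, log2 difference) for the 36 genes, labelled members, and for the 9 other lists, with a point per measured gene and a bar at the list median. In germ-free against wild type colon the stress response targets have the lowest median (-0.44), and between the regions the glycoprotein folding list has the highest median in germ-free mice (0.54) and the COPII list in wild type mice (0.62).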

How the data were processed

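RNA of laser-captured epithelial cells was measured on Affymetrix mouse arrays, 1 per group, from 40 ng of total RNA after 2 rounds of amplification, per the labels' protocols. What the authors deposited is a linear intensity per probe set and array, made with dCHIP software per the series' design text, with options not given in the sources used here. Per array their medians were 60.8 to 64.3 and their 75th percentiles 240 to 299. The 64 control probe sets were set aside, the other 45037 were put on log2 and quantile-normalized, and values under the pooled median (62.4) were set to it. Symbols came from the platform annotation, where 34945 probe sets had 1 gene symbol, and each gene was read from its brightest probe set by mean. A gene was measured in a comparison if above the floor on at least 1 of its 2 arrays. A bound replaces a fold where the other array was below it.

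Differences of log2 values were taken for germ-free minus wild type in each region, ileum minus colon in each state, and the colon difference minus the ileum difference. With 1 array of pooled RNA per group no test was made, and the small number of arrays limits precision. All 36 genes are named. From each pathway list the genes past 2-fold between germ-free and wild type mice are named (at most 4, by size), or else the 2 largest, and from each marker list the brightest 3 or those set beside a result. The genes and lists were chosen with earlier results of these data known. Of 123 listed pathway genes 118 were found, and the others were not analysed here. Steps were tested on simulated data with Python 3.11.15, numpy 2.4.6 and pandas 2.3.3. Alternatives were the deposited values, median scaling, other floors, averaging the probe sets of a gene, leaving out probe sets that can match several transcripts, a filter on mean intensity, and 1.5-fold. Protein sequences were not used here.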

Additional observations from a re-analysis of the deposited data

How the results depend on the processing

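No paired analysis was possible because each group had 1 array, and leaving out a replicate was not possible for the same reason. Of the alternative values of the counts and medians, 123 stayed within 1.5 times the main count or within the probe set SD, and 12 moved. Many of the 123 could not have moved. All 36 genes were above the floor on all arrays, so the lower floor, no floor and the filter on mean intensity gave the main values. The 1.5-fold limit cannot change a median. At 1.5-fold in place of 2-fold, colon had 1 gene higher and 2 lower in germ-free mice, ileum had 1 lower, ileum against colon had 12 higher and 1 lower in germ-free and 10 higher and 3 lower in wild type mice, and the colon minus ileum difference had 1 lower. When the probe sets of a gene were averaged, colon had 1 gene lower past 2-fold (Atf4, -1.19) and the colon minus ileum difference 2 (Pdia4, -1.21, and Atf4, -1.11). Leaving out the probe sets marked as matching several transcripts, Hyou1 was read from another probe set. It was then the 1 gene lower past 2-fold in germ-free colon (-1.22) and the 1 lower in the colon minus ileum difference (-1.48), and its ileum minus colon difference in wild type mice turned to -0.62. The cause was not tested.

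Of the single gene differences, 1644 alternative values stayed within the probe set SD of the main one and 67 moved by more. Among the 1644, those of the lower floor, no floor and the filter on mean intensity could not have moved. Of those past 1.5-fold, that of Hyou1 alone turned its sign. Smaller ones turned under at least 1 alternative for 12 of 36 genes in colon and 7 in ileum between germ-free and wild type mice, for 15 in the colon minus ileum difference, and between the regions for 6 in germ-free and 4 in wild type mice (Hyou1 included). The median of the 36 genes ranged over the alternatives from -0.23 to -0.03 in germ-free against wild type colon, from -0.18 to -0.10 in ileum, from 0.28 to 0.42 between the regions in germ-free mice and from 0.32 to 0.42 in wild type mice. Both ileum arrays lay above both colon arrays for 22 to 26 of 36 genes over the scalings, floors and probe set rules, and for 18 of 31 without the shared probe sets. The 36 genes were above the main floor on every array, while genes at the floor give bounds alone. Sdf2l1, Pdia4 and Pdia5 had means below the 75th percentile, and with the floor set there 33 or 34 of the 36 were measured.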
